A study of Mus musculus with 6 samples.

Results

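Wnt proteins are secreted signals, and the 51 genes described here make up the part of the pathway that makes, receives and restrains these signals. They are 19 Wnt ligands, 2 genes for the maturation and release of ligands (Porcn and Wls), 10 Frizzled receptors, 5 co-receptors (Lrp5, Lrp6, Ror1, Ror2 and Ryk), 11 inhibitors and 4 R-spondins. The genes were taken by symbol, by their role in the pathway. All 51 had a probe set of their own on the array, among 22180 genes in all, and where a gene had more than 1 the brightest was used, by its mean signal in the 6 arrays. The 51 genes had 53 such probe sets, with Lrp6 and Sfrp2 having 2 each. Livers came from male C57BL offspring at 32 weeks of age, fasted before they were killed. In the CR-CD group the dams ate a chromium-restricted diet during pregnancy and lactation, and the pups went onto the control diet at weaning. In the CD-CD group both dams and pups ate the control diet throughout, so the groups differ in what the dam ate and share the diet after weaning. The comparison asks whether chromium restriction of the dam leaves a difference in the liver of the grown offspring. Each group had 3 Affymetrix GeneChip Mouse Gene 2.0 ST arrays. The labels number the arrays and do not say whether each held the liver of a separate animal or litter, so every p-value measures only the spread between these arrays.

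Porcn adds a fatty acid to Wnt ligands in the endoplasmic reticulum, and Wls then carries them to the surface. A ligand binds a Frizzled receptor together with Lrp5 or Lrp6, which stabilizes beta-catenin, or it acts through Ror1, Ror2 and Ryk on pathways that do not use beta-catenin. The secreted proteins Sfrp, Frzb and Wif1 bind ligands, Dkk proteins block Lrp5 and Lrp6 together with Kremen receptors, and R-spondins strengthen the signal through Lgr receptors and the ubiquitin ligases Znrf3 and Rnf43. In the mouse liver, endothelial cells of the central vein make Wnt2, Wnt9b and Rspo3, and the hepatocytes around that vein respond with beta-catenin targets such as glutamine synthetase.

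The values are log2 signals, normalized by the authors and used as deposited. They came in more than one number format, and the difference bears on every call below. Most values had 6 decimals at the median, while 428 of 33793 probe sets held at least 1 value in a longer format with 9 decimals at the median. Over all genes, 324 (1.46%) held such values, and among the Wnt genes 3 did (5.88%), namely Wnt5a, Porcn and Apcdd1. The sources used here do not describe what sets these values apart, and how they arose was not tested.

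An expression array gives a signal also where a gene is silent. A background cutoff was therefore set in each array at the 95th percentile of 1390 odorant and vomeronasal receptor genes, which serve smell. The cutoffs were 5.37, 5.47 and 5.52 in the CR-CD arrays and 5.49, 5.41 and 5.45 in the CD-CD arrays. Of the 51 Wnt genes, 30 (58.8%) lay above the cutoff in all 6 arrays, against 54.1% of all genes and 3.38% of the receptor genes themselves. All 5 co-receptors, 7 of 10 Frizzled receptors, 3 of 4 R-spondins, 9 of 19 ligands, 5 of 11 inhibitors and 1 of 2 genes for maturation and release were among them. The ligands above it in every array were Wnt1, Wnt2, Wnt3a, Wnt4, Wnt5b, Wnt9a, Wnt9b, Wnt10a and Wnt11. Another 9 genes were above it in no array, namely Wnt3, Wnt8b, Wnt16, Fzd2, Fzd3, Fzd10, Sfrp4, Sfrp5 and Dkk1. The remaining 12 were above it in some arrays only. The count in all 6 arrays depended on the cutoff, with 43 genes above the 90th percentile of the receptor genes and 10 above the 99th. The plot of all 51 genes by array shows how many of the ligands and inhibitors sat close to the cutoff.

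**Figure D1:**
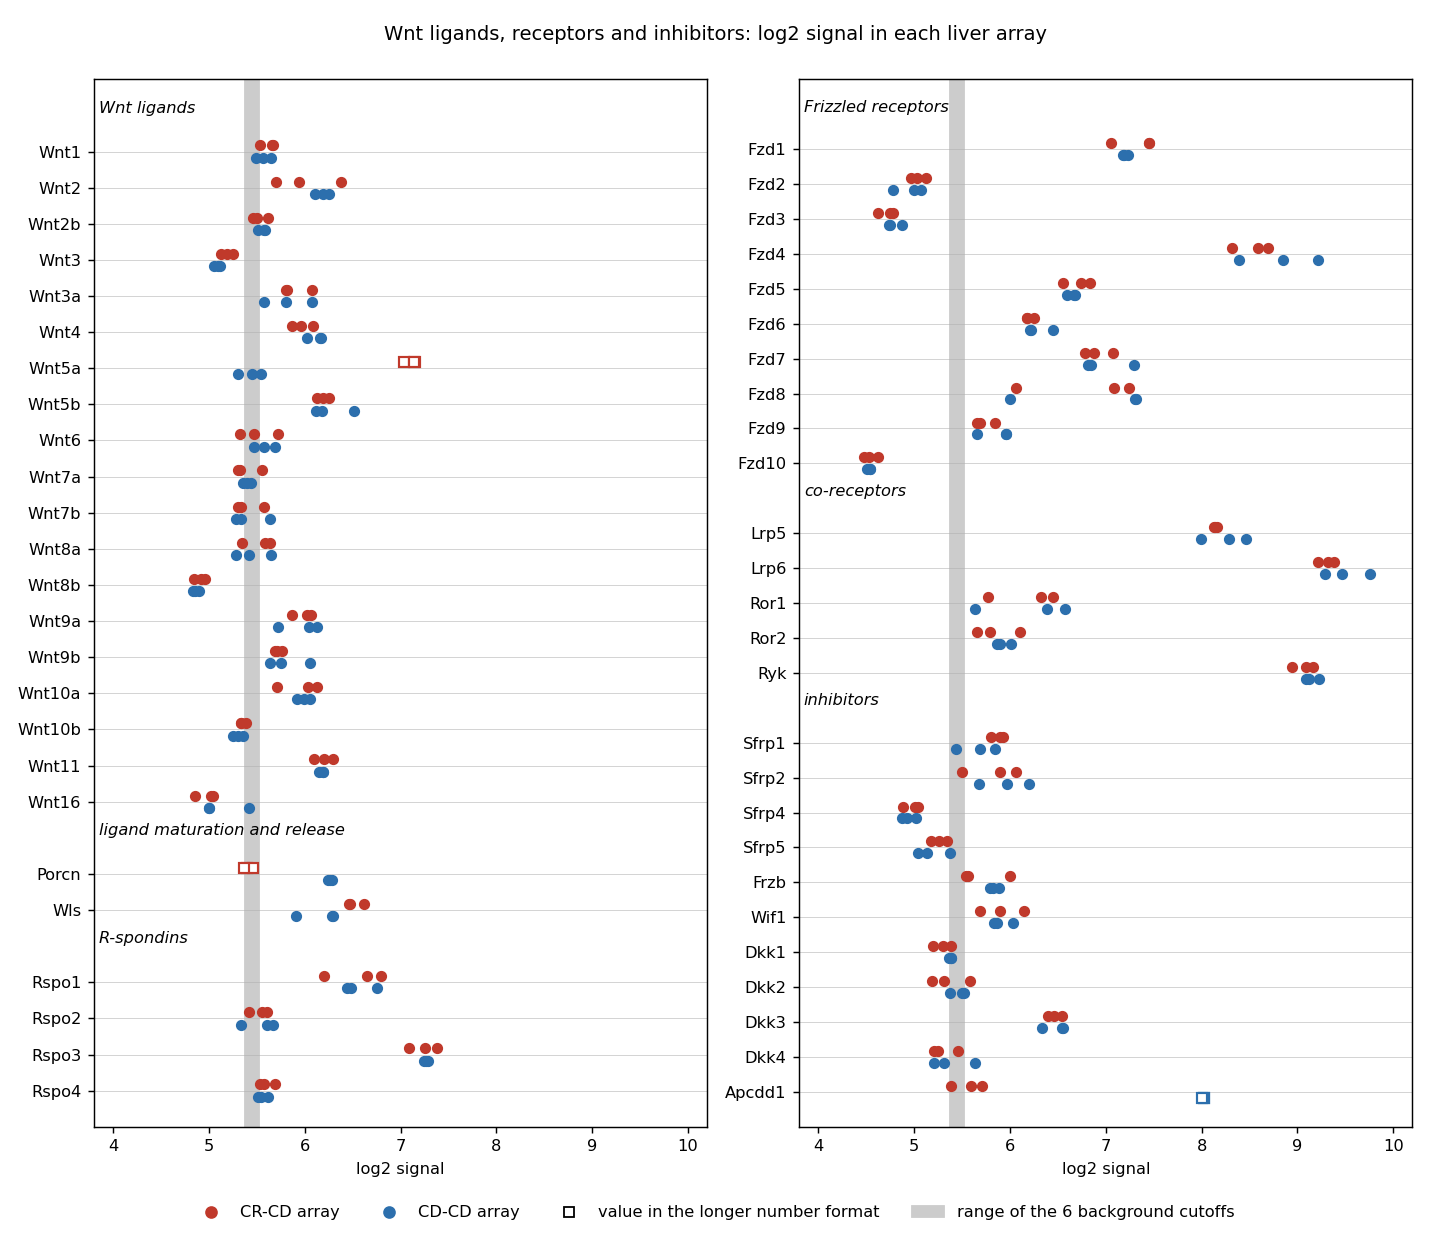
Log2 signal (horizontal axis) of the 51 Wnt genes in each array, with CR-CD arrays in red above CD-CD arrays in blue for each gene; open squares are values in the longer number format and the grey band is the range of the 6 background cutoffs. Wnt5a, Porcn and Apcdd1 are the genes whose groups lie far apart, and in each of them 1 group is drawn as open squares.

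Of the 51 genes, 1 was higher in CR-CD livers in limma at an adjusted p below 0.05, with adjustment over the whole array, against 174 of 22180 genes (0.784%), and 2 were lower, against 155 genes (0.699%). The gene that rose was Wnt5a and those that fell were Porcn and Apcdd1. All of them held longer values, as did 315 of the 329 genes called over the whole array. When every probe set with a longer value was left out, limma called 0 of the 48 Wnt genes that remained and 0 of 21878 genes in all. Unadjusted, 1 of these Wnt genes, Wls, and 1091 of all genes then had a p below 0.05. At the thresholds in the study's methods, a fold of 1.5 together with an unadjusted p from the methods' t-test, 346 genes passed (1.56%), and Wnt5a, Porcn and Apcdd1 were the Wnt genes among them. After Benjamini-Hochberg adjustment of that test 275 genes and the same 3 Wnt genes passed.

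Arrays of the groups did not overlap in 5 Wnt genes. Higher in every CR-CD array were 3 of them, Wnt3, Wnt5a and Wls, against 5.63% of all genes. Lower in every CR-CD array were 2, Porcn and Apcdd1, against 5.77% of all genes. The share of Wnt genes without overlap was thus near that of the array as a whole. Over the 51 genes the median log2 fold change, CR-CD minus CD-CD, was -0.02, with 19 above 0 and 32 below, and over all genes it was 0.00. The 48 genes in the short format ran from -0.28 to 0.35.

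**Figure D2:**
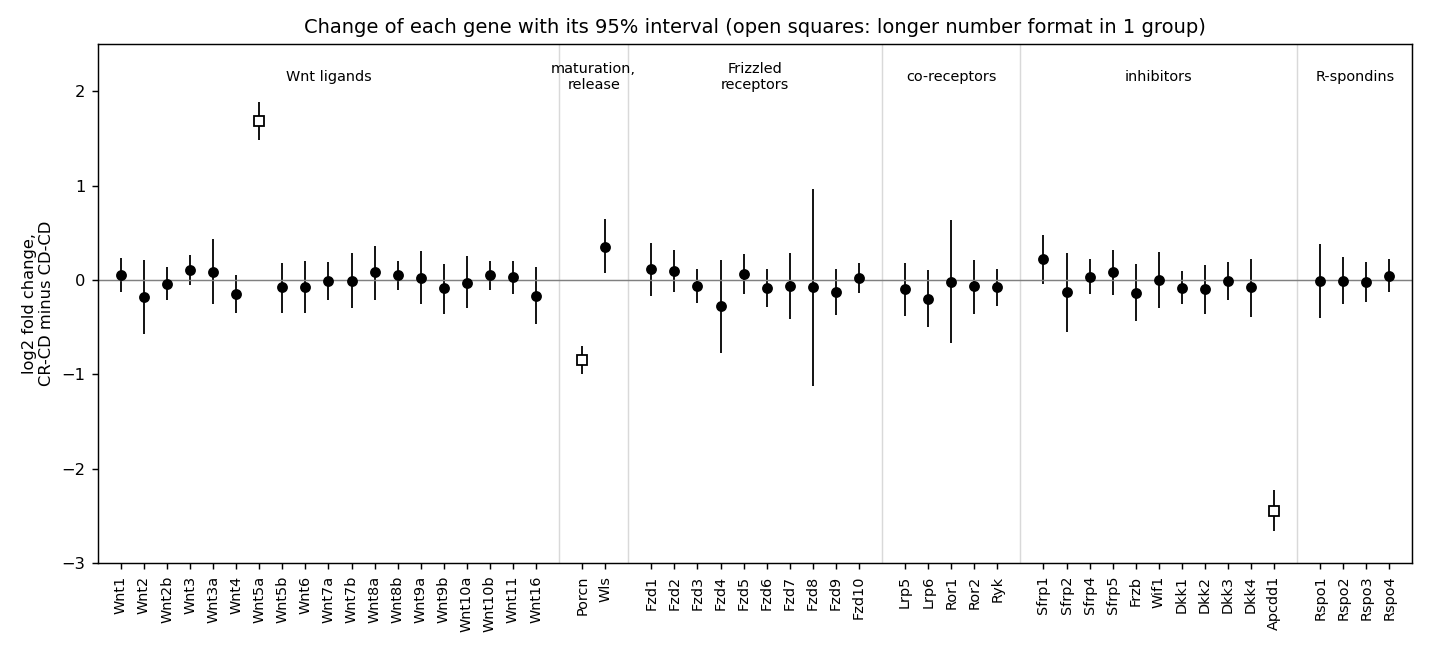
Log2 fold change (vertical axis, CR-CD minus CD-CD) of each Wnt gene by class with its 95% interval from limma, n = 3 arrays per group; open squares mark the genes with longer values in 1 group. Outside those 3 genes the changes lie between -0.28 and 0.35, and all of their intervals but that of Wls cross 0.

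Among the ligands, Wnt5a, which signals mainly through Ror and Ryk without beta-catenin, was the gene that passed the test. Its log2 signal was 7.04, 7.15 and 7.14 in the CR-CD arrays, against 5.45, 5.30 and 5.54 in the CD-CD arrays. Every CR-CD array was far above every CD-CD array, and the CD-CD values lay at the background, with 1 of 3 arrays above its cutoff, against all 3 CR-CD arrays. The means were 7.11 ± 0.06 in CR-CD and 5.43 ± 0.12 in CD-CD (SD, n = 3 each), a log2 fold change of 1.68 (95% interval 1.48 to 1.88, adjusted p = 6.61e-05 from limma), or 3.20-fold between the measured means. Since the CD-CD mean lay at background, the size of this fold is limited by the floor of the array. The 3 CR-CD values were in the longer format, with 8 or 9 decimals, and the 3 CD-CD values in the short one.

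The other 18 ligands had log2 fold changes from -0.18 to 0.10, and none passed the adjusted p. Wnt5b, a close relative of Wnt5a that also acts without beta-catenin, measured 6.25, 6.13 and 6.19 in CR-CD arrays, against 6.51, 6.18 and 6.12 in CD-CD arrays. These groups overlapped, and the change of -0.08 had a 95% interval of -0.35 to 0.18, which does not reach the change of Wnt5a. Wnt11, a further ligand of the pathways without beta-catenin, gave 6.20, 6.10 and 6.30 in CR-CD arrays and 6.19, 6.15 and 6.19 in CD-CD arrays, a change of 0.03 (-0.15 to 0.20). Wnt4, a ligand of kidney and ovary development, had the smallest p of the ligands that were lower, with 5.87, 5.96 and 6.09 in CR-CD arrays and 6.17, 6.02 and 6.16 in CD-CD arrays. Its arrays overlapped, and the change was -0.15 (-0.35 to 0.05, adjusted p = 0.874 from limma).

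Wnt2 and Wnt9b, the ligands of the central vein, lay above background in all 6 arrays, but by as little as 0.23 and 0.15. Wnt2 was 5.94, 5.70 and 6.38 in CR-CD arrays, against 6.11, 6.19 and 6.25 in CD-CD arrays. Wnt9b was 5.69, 5.71 and 5.76 in CR-CD arrays, against 5.64, 5.75 and 6.05 in CD-CD arrays. Both overlapped between groups, with changes of -0.18 (-0.57 to 0.21) and -0.09 (-0.36 to 0.17). Wnt3, a ligand of the early embryo, did not overlap, with 5.13, 5.19 and 5.25 in CR-CD arrays and 5.05, 5.12 and 5.10 in CD-CD arrays, but all 6 values were below background and the adjusted p from limma was 0.897. The median over the 19 ligands was -0.01.

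The genes that prepare ligands for secretion went in opposite directions. Porcn, the acyltransferase, measured 5.40, 5.46 and 5.37 in CR-CD arrays, against 6.28, 6.24 and 6.26 in CD-CD arrays. The groups did not overlap, and Porcn was above background in 1 CR-CD array and in all 3 CD-CD arrays. Its means were 5.41 ± 0.05 in CR-CD and 6.26 ± 0.02 in CD-CD (SD, n = 3 each), a log2 fold change of -0.85 (-1.0 to -0.70, adjusted p = 0.000439 from limma), or 1.80-fold lower between the measured means. Here the CR-CD mean lay at background, so the size of the fold is limited by the floor of the array. Here too the 3 CR-CD values were in the longer format, although CR-CD is the lower group, and the 3 CD-CD values were in the short one.

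Wls, the carrier that takes acylated ligands to the surface, was 6.62, 6.47 and 6.46 in CR-CD arrays, against 5.91, 6.30 and 6.28 in CD-CD arrays. All 6 values were in the short format and above background, and no CR-CD array was as low as any CD-CD array. The change was 0.35 (0.07 to 0.64), and it did not pass the adjusted p (0.674 from limma). Of the 48 genes in the short format, Wls had the largest change, and CD-CD replicate 1 was the lowest of its 6 arrays.

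**Figure D3:**
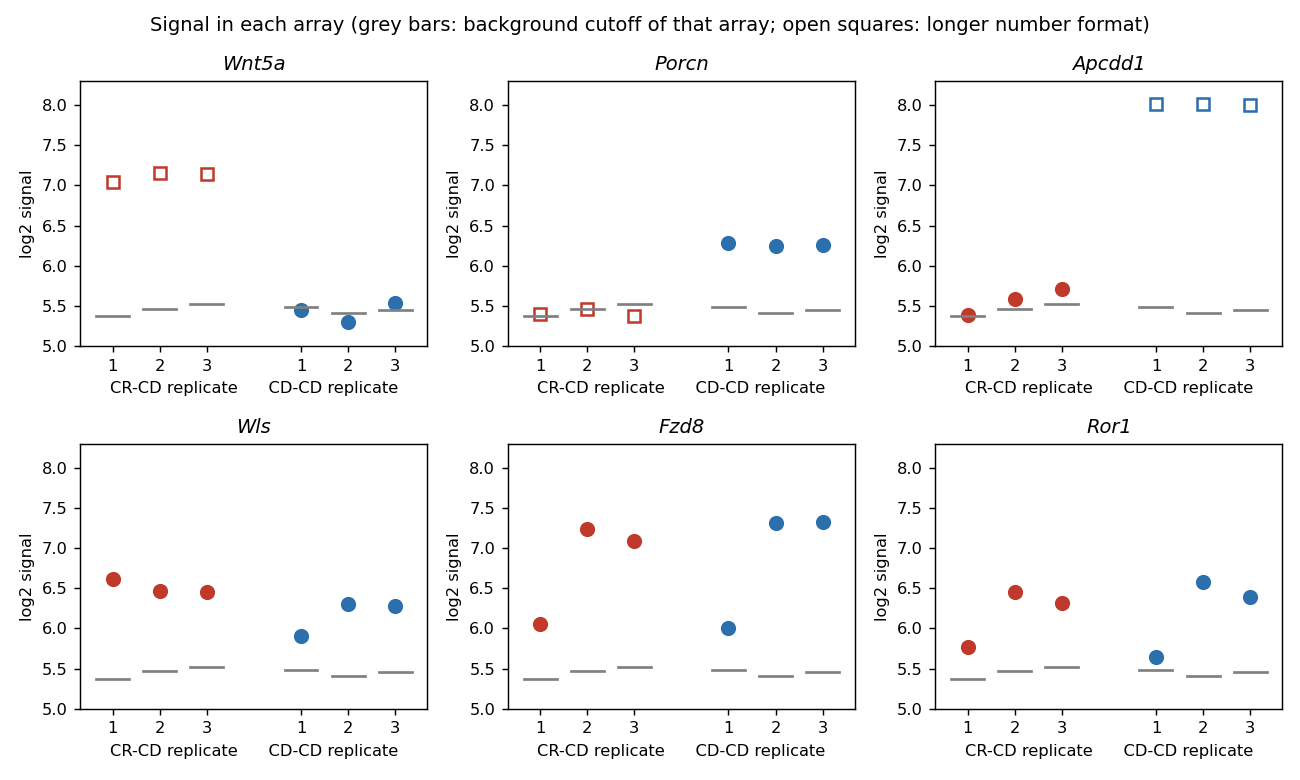
Log2 signal (vertical axis) of 6 Wnt genes in each array, CR-CD replicates in red left of CD-CD replicates in blue; grey bars are the background cutoff of that array and open squares are values in the longer number format. Wnt5a, Porcn and Apcdd1 split by group, with 1 group of each at its cutoff, while Fzd8 and Ror1 split by replicate number, with replicate 1 of both groups low.

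Of the 15 receptors and co-receptors, 0 passed the test, and their median change was -0.07, with 4 above 0 and 11 below. Among the Frizzled receptors, the seven-pass membrane proteins that bind the ligands, Fzd4 had the largest change and the smallest p of those that were lower. It is a receptor for Wnts and for Norrin in blood vessels. Fzd4 measured 8.32, 8.59 and 8.69 in CR-CD arrays, against 8.39, 9.21 and 8.85 in CD-CD arrays. The groups overlapped, and the change was -0.28 (-0.77 to 0.21, adjusted p = 0.922 from limma). Fzd1 gave 7.45, 7.05 and 7.45 in CR-CD arrays and 7.19, 7.23 and 7.18 in CD-CD arrays, and CR-CD replicate 2 lay below all CD-CD arrays while the other CR-CD arrays lay above them. Fzd7 gave 7.08, 6.88 and 6.78 in CR-CD arrays and 7.29, 6.81 and 6.85 in CD-CD arrays, with replicate 1 the highest in both groups. Fzd2 had the smallest p of the receptors that were higher (0.09, -0.13 to 0.32, adjusted p = 0.958 from limma), and all 6 of its values were below background. The 10 Frizzled receptors ran from -0.28 to 0.11, with a median of -0.07.

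All 5 co-receptors had lower means in CR-CD livers, by -0.20 to -0.02 on the log2 scale, and all overlapped between groups. Lrp6, the main partner of Frizzled in the beta-catenin pathway, was 9.38, 9.32 and 9.21 in CR-CD arrays, against 9.76, 9.46 and 9.29 in CD-CD arrays. The change was -0.20 (-0.50 to 0.10, adjusted p = 0.889 from limma), and a second, dimmer probe set of Lrp6 had a change of 0.10, so the direction depended on the probe set. Lrp5, its close relative, was 8.13, 8.16 and 8.14 in CR-CD arrays, against 8.46, 7.99 and 8.29 in CD-CD arrays. The CR-CD arrays of Lrp5 were nearly equal and sat within the range of the CD-CD arrays. Ryk, a receptor with an inactive kinase, was 9.16, 9.09 and 8.94 in CR-CD arrays, against 9.23, 9.12 and 9.09 in CD-CD arrays, a change of -0.08 (-0.28 to 0.12). Ror1 and Ror2, receptor tyrosine kinases through which Wnt5a acts, had changes of -0.02 (-0.67 to 0.63) and -0.07 (-0.36 to 0.21).

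Fzd8 and Ror1 varied more among arrays of 1 group than between groups. Fzd8 was 6.06, 7.24 and 7.09 in CR-CD arrays, against 6.0, 7.31 and 7.32 in CD-CD arrays. Replicate 1 was below the mean of replicates 2 and 3 by 1.10 in CR-CD and by 1.32 in CD-CD. Ror1 was 5.77, 6.45 and 6.32 in CR-CD arrays, against 5.64, 6.58 and 6.39 in CD-CD arrays, so replicate 1 was again the lowest of each group. With replicates 2 and 3 alone, CR-CD minus CD-CD was -0.15 for Fzd8 and -0.10 for Ror1. Replicate 1 was the lowest array of both groups in 6 of the 51 Wnt genes (11.8%) and in 10.1% of all genes, and the highest of both in 4 (7.84%) and in 11.7% of all genes. What the replicate numbers stand for is not given in the sources used here.

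Among the inhibitors, Apcdd1, a membrane glycoprotein that, in humans, binds Wnt ligands and Lrp5 and holds the signal back at the cell surface, fell in CR-CD livers. Its log2 signal was 5.39, 5.59 and 5.71 in the CR-CD arrays, against 8.02, 8.02 and 8.0 in the CD-CD arrays. The groups lay far apart, and the CR-CD values were close to their background cutoffs although all 3 were above them. The means were 5.56 ± 0.16 in CR-CD and 8.01 ± 0.01 in CD-CD (SD, n = 3 each), a log2 fold change of -2.45 (-2.66 to -2.23, adjusted p = 2.69e-05 from limma), or 5.45-fold lower between the measured means, with the CR-CD mean close to the floor. In this gene the CD-CD values, the higher group, were in the longer format.

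The spread among arrays was set beside the format, with only 1 Wnt gene in the longer format in CD-CD and 2 in CR-CD. The SD of Apcdd1 over the longer CD-CD values was 0.011, while the SDs of the 50 genes with short CD-CD values ran from 0.015 to 0.76 with a median of 0.116. Wnt5a and Porcn, with longer values in CR-CD, had SDs of 0.063 and 0.049 there, and the 49 genes with short CR-CD values ran from 0.017 to 0.642 with a median of 0.106. The groups of Wnt5a, Porcn and Apcdd1 in the longer format thus had SDs below the short medians, with Wnt5a and Porcn inside the short range. Within Porcn the short CD-CD values were the tighter ones, with an SD of 0.02. So few groups do not show a general difference by format. In Wnt5a and Apcdd1 the longer values were those of the higher group, and in Porcn those of the lower group.

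The other 10 inhibitors had changes from -0.14 to 0.22, and none passed. Sfrp1, a secreted decoy for Wnt ligands, had the smallest p of those that were higher, with 5.80, 5.93 and 5.90 in CR-CD arrays and 5.69, 5.84 and 5.44 in CD-CD arrays. The groups overlapped, and the change was 0.22 (-0.04 to 0.48, adjusted p = 0.823 from limma). Wif1, which binds ligands in the extracellular space, was 5.69, 5.90 and 6.15 in CR-CD arrays, against 6.03, 5.87 and 5.83 in CD-CD arrays, a change of 0.00 (-0.30 to 0.30). Dkk3, a divergent member of the Dickkopf family, was 6.46, 6.40 and 6.54 in CR-CD arrays, against 6.54, 6.55 and 6.34 in CD-CD arrays, a change of -0.01 (-0.21 to 0.19). Wif1 and Dkk3 were above background throughout and did not separate the groups. Sfrp2 had changes of -0.13 in its brighter and 0.04 in its dimmer probe set. Dkk1, the best known blocker of Lrp6, was above background in no array, and Dkk2 and Dkk4 were above it in 3 arrays and in 1 array. The median over the 11 inhibitors was -0.08.

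The 4 R-spondins had changes from -0.02 to 0.04, with a median of -0.01, and none passed. Rspo3, which sustains the signal around the central vein, was 7.38, 7.09 and 7.25 in CR-CD arrays, against 7.24, 7.29 and 7.27 in CD-CD arrays. The CR-CD arrays lay on both sides of the CD-CD arrays, and the change was -0.02 (-0.23 to 0.19, adjusted p = 0.999 from limma). Rspo1, which shares its receptors, was 6.65, 6.80 and 6.20 in CR-CD arrays, against 6.44, 6.48 and 6.75 in CD-CD arrays, a change of -0.01 (-0.40 to 0.38). Rspo4, known for its part in nail growth in humans, was 5.58, 5.53 and 5.69 in CR-CD arrays, against 5.62, 5.54 and 5.51 in CD-CD arrays, a change of 0.04 (-0.13 to 0.22). Rspo2 had a change of -0.01 (-0.26 to 0.24) and was above background in 5 of 6 arrays.

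**Figure D4:**
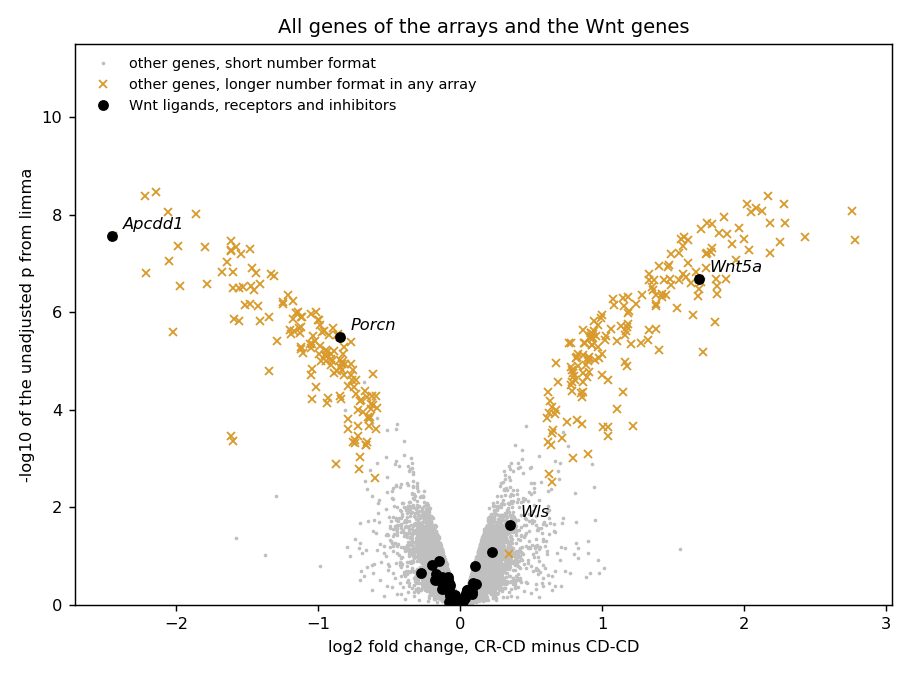
Log2 fold change (horizontal axis, CR-CD minus CD-CD) against -log10 of the unadjusted p from limma (vertical axis) for all 22180 genes; black points are the 51 Wnt genes, orange crosses the other genes with a longer value in any array and grey points the rest. Wnt5a, Porcn and Apcdd1 lie among the orange crosses, and the other Wnt genes lie at the foot of the plot.

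Other genes of the pathway were counted from lists that were chosen with earlier results of these data known. Of 22 other surface and secreted regulators, 1 was lower at the adjusted p from limma, against 0.699% of all genes, and 0 were higher, against 0.784%. Their median change was -0.06. The gene that fell was Kremen1, the receptor that joins Dkk proteins to Lrp6. Kremen1 was 6.75, 6.77 and 6.69 in CR-CD arrays, against 7.56, 7.61 and 7.62 in CD-CD arrays, a log2 fold change of -0.86 (-1.01 to -0.71, adjusted p = 0.000401 from limma), and its CD-CD values were in the longer format. The R-spondin receptors Lgr4 and Lgr5 had changes of 0.03 and 0.17, and the ubiquitin ligases they act on, Znrf3 and Rnf43, had -0.07 and -0.48, none past the adjusted p. Gpc4, a glypican that holds ligands at the surface, did not overlap between groups, with 8.16, 8.10 and 8.10 in CR-CD arrays and 8.51, 8.41 and 8.89 in CD-CD arrays, all in the short format (adjusted p = 0.328 from limma). In all, 5 of the 22 regulators were lower in every CR-CD array than in any CD-CD array, namely Kremen1, Kremen2, Gpc4, Draxin and Cer1, against 5.77% of all genes, and 0 were higher in this way, against 5.63%. Cer1 was above background in no array.

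Inside the cell, 4 of 39 measured genes of the pathway were higher at the adjusted p from limma, against 0.784% of all genes, and 3 were lower, against 0.699%. All 7 held longer values. Those that rose were Ctnnb1, which encodes beta-catenin (1.18), its DNA-binding partners Tcf7l1 (1.74) and Tcf7l2 (2.0), and Frat1, which binds Gsk3 (1.04). Those that fell were Apc2, of the complex that breaks beta-catenin down (-1.41), the corepressor Tle3 (-0.94) and the coactivator Bcl9l (-1.14). Frat1 lay above background in all CR-CD arrays but not in all CD-CD arrays. The paper's pathway analysis of these same arrays had listed Ctnnb1, Tcf7l1, Tcf7l2, Frat1 and Apc2 under Wnt signaling, with Wnt5a and Porcn. The shares called here are therefore not independent of that earlier result. Outside the arrays, the paper reported higher Wnt5a, Ctnnb1 and Tcf7l2 RNA in CR-CD livers by real-time PCR. By Western blot it reported more WNT5A protein. Neither measurement was re-analysed here. The median change over the 39 genes was -0.02, and the 32 in the short format ran from -0.36 to 0.15. The lower end was Axin2, a feedback inhibitor that beta-catenin induces, at 6.0, 6.23 and 5.97 in CR-CD arrays, against 6.30, 6.40 and 6.57 in CD-CD arrays. The groups of Axin2 did not overlap, and the adjusted p from limma was 0.483. Of the 39 genes, 9 were lower without overlap between the groups, against 5.77% of all genes, and 4 were higher, against 5.63%.

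Of 16 genes known as beta-catenin targets of the hepatocytes around the central vein, limma called 0 after adjustment and gave 2 an unadjusted p below 0.05, against 1415 of 22180 genes in all, and 0 held longer values. Their changes ran from -0.61, in the transcription factor Tbx3, to 0.17, with a median of 0.00, and 9 were above 0 and 7 below. The genes with an unadjusted p below 0.05 were Tbx3 and Axin2 (-0.36), both lower in CR-CD livers. Axin2, Nkd1, Lgr5, Notum, Rnf43 and Znrf3 were also in the lists above, so the lists are not separate. Glul, which encodes glutamine synthetase, had a change of 0.00 (-0.18 to 0.18), and Cyp2e1, a cytochrome P450 of the same hepatocytes, of -0.04.

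Markers of the cell types in the liver were read beside these values. In whole liver RNA, fewer cells of a type and less RNA per cell cannot be told apart. All 8 hepatocyte markers were above background in every array, and 0 passed the adjusted p. The 13 markers of liver endothelium in general, not of the central vein alone, summed to 3295 to 4175 in linear signal in CR-CD arrays, against 2920 to 4394 in CD-CD arrays. The 11 markers of stellate cells and fibroblasts summed to 2928 to 3442 in CR-CD, against 2832 to 3270 in CD-CD. Both sums overlapped between groups. The 10 markers of Kupffer and other myeloid cells summed to 3082 to 4929 in CR-CD arrays, against 1960 to 2809 in CD-CD arrays, without overlap. All 10 were above background in every array and had higher means in CR-CD, with a median change of 0.62, and 5 were higher without overlap between groups, against 5.63% of all genes, although 0 passed the adjusted p from limma. Their part in the values of the Wnt genes was not tested.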

How the data were processed

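The deposited table holds log2 signals of 33793 probe sets in 6 arrays, which the authors normalized in GeneSpring v 12.5; the summarization, any filter and the genome build are not given in the sources used here, so no position is printed. Platform annotation gave 1 symbol for 23521 probe sets, several for 1820 and none for 8452, and probe sets with 1 symbol gave 22180 genes. Array medians lay between 5.48 and 5.54, and precision is limited by having 3 arrays per group. CR-CD was set against CD-CD with R 4.3.3 and limma 3.58.1 (lmFit, eBayes; residual degrees of freedom 4, prior 2.98). P-values were adjusted by Benjamini-Hochberg over all genes, with a threshold of 0.05, and the steps were tested on simulated data. A value was counted as longer where it was not the shortest decimal of a single-precision number. The members and lists were chosen with earlier results of these data known. Values are given for members past the adjusted p or with longer values, the 3 brightest of each class, and the smallest p each way per class; Wnt2, Wnt9b, Wnt3, Fzd8, Ror1 and other genes were named after their values were seen. Gsk3a, Csnk1d and Tcf7 had no probe set of their own symbol and were not analysed here.

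The labels give no pairing by replicate number. Across genes, same-numbered arrays deviated from their group means together, with correlations of 0.407, 0.208 and 0.201, and a fit with the replicate number as a block was run. CR-CD replicate 3 correlated more with CD-CD replicate 2 (0.261) than with its own number. The alternatives also covered quantile normalization, median centring, robust variances with an intensity trend, the methods' t-test, leaving out genes below the 40th percentile of signal, other rules for probe sets, other background cutoffs, leaving out longer values, and leaving out each array in turn. Figures were drawn with matplotlib 3.10.9, pandas 2.3.3 and numpy 2.4.6 (Python 3.11.15).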

Additional observations from a re-analysis of the deposited data

How the results depend on the processing

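Leaving out the probe sets with longer values ended every call: 0 genes were then higher and 0 lower in CR-CD over the whole array, and 0 Wnt genes were higher and 0 lower. This was by construction in large part, since 315 of the 329 called genes, with Wnt5a, Porcn and Apcdd1, held the values left out. The called genes without longer values stayed in and did not pass once the fit and the adjustment were made anew, which does not show that their own values depend on the format. The median of the genes for maturation and release was then 0.35, the value of Wls alone. Under the other alternatives Wnt5a, Porcn and Apcdd1 kept their direction and passed, with adjusted p from 1.19e-05 to 0.00607, from 0.000429 to 0.00495 and from 1.99e-06 to 0.00369 in limma and the methods' t-test, and Wls did not pass (0.513 to 0.999). With the replicate number as a block, limma called 183 genes higher and 156 lower, and 1 Wnt gene higher and 2 lower, with adjusted p of 0.000534 for Wnt5a, 0.00376 for Porcn and 0.00037 for Apcdd1, so pairing changed no call among the Wnt genes.

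Several class medians lay near 0 and moved when single arrays were left out, from -0.064 to 0.027 for the ligands, from -0.062 to 0.001 for the Frizzled receptors, from -0.088 to 0.007 for the inhibitors and from -0.065 to 0.001 for all 51 genes. The R-spondins stayed between -0.015 and 0.015, and the co-receptors between -0.114 and -0.074. The median of the genes for maturation and release was further from 0, at -0.307 to -0.219 when single arrays were left out. The change of Rspo3 then ran from -0.09 to 0.05, the upper end without CR-CD replicate 2, and that of Rspo4 from 0.00 to 0.08, the lower end without CR-CD replicate 3, so neither has a settled direction. With the cutoff at the 99th percentile of the receptor genes, 10 Wnt genes were above background in all 6 arrays, against 30 at the 95th percentile, 43 at the 90th and 26 with the median of all probe sets as the cutoff, so many of the weaker ligands and inhibitors have only an uncertain level. With 3 arrays a group, a missed threshold does not show equal levels.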
